A study of Mus musculus with 4 samples.

Results

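This report describes 10 mouse genes of the p53 pathway and of growth arrest, Trp53, Mdm2, Cdkn1a, Cdkn1b, Ccng1, Gadd45a, Gadd45b, Gadd45g, Bax and Sfn, in newborn skin with and without loricrin. They were chosen by name, and a probe set (the group of probes that reads 1 transcript) was taken where the platform annotation gives exactly 1 of these symbols. Of the 10, 8 had a probe set, 11 probe sets in all, among the 13674 genes that the arrays name. Trp53 and Bax were not listed with a probe set of their own and were not analysed here.

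Whole skin was taken on postnatal day 0 from mice of strain FVB/N, either loricrin knockout or wildtype, and total RNA was hybridised to Affymetrix arrays. Loricrin is the main protein of the cornified envelope, the cross-linked shell of dead surface keratinocytes. Each genotype has 2 arrays, which belong to 2 array types with different probe sets. All 11 probe sets of the 10 genes lie on the first type and none on the second, so each of their ratios compares 1 knockout array with 1 wildtype array. They have no replicate error and no test. The labels do not give the number or the sex of the animals, or the allele of the knockout, and whole skin mixes epidermis, dermis, vessels and blood, in which fewer cells of a type and less RNA per cell cannot be told apart.

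p53, the product of Trp53, is a transcription factor that is stabilised by DNA damage and other stress. Its target genes halt the cell cycle or start apoptosis, and one of them, Mdm2, encodes the ubiquitin ligase that marks p53 for degradation and so closes a feedback loop. In the epidermis several of these genes also act in the normal switch from dividing basal cells to differentiating cells. Cdkn1a and Sfn are well known for this, and their expression there does not depend on p53 alone.

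p53 binds DNA as a tetramer on a pair of half-sites, and the start sites of the 10 genes were searched for this motif, because it is the feature that would tie them to one regulator. RefSeq promoter windows of build GRCm38.p6, from 250 bases before to 50 bases after the start, were available for all 10 genes, 11 windows in all with a pair for Cdkn1a. An exact match to the 10-base p53 half-site consensus, which reads the same on both strands, occurred in the windows of 6 genes. Of all 32851 windows of this length 8.36% held one. Of the 8 genes with array values, 4 had a match, and the stretches around it are given here 5′ to 3′ on the gene's strand, with the half-sites in capitals.
Cdkn1a: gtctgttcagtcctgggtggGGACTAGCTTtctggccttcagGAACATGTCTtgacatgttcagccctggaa
Ccng1: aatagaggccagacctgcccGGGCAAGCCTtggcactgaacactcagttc
Mdm2: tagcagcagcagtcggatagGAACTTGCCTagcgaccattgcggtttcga
Gadd45a: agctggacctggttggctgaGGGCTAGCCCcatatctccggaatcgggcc

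The Cdkn1a stretch lies at chr17:29090886-29090957 on the plus strand, in the more upstream of its 2 windows. It was the 1 stretch with 2 exact matches, separated by a 12-base spacer, and 0.0731% of all windows held 2 exact matches with a spacer of at most 13 bases. The 10 bases directly after the second match depart from the consensus in their first letter alone. They were not counted, so the 12-base spacer describes the exact matches and not the pair that p53 would use. The others lie on the minus strand, Ccng1 at chr11:40755442-40755491, Mdm2 at chr10:117710915-117710964 and Gadd45a at chr6:67037418-67037467. The windows of Trp53 and Bax also held a half-site. No exact match was in the windows of Cdkn1b, Gadd45b, Gadd45g or Sfn, or in the second window of Cdkn1a. A match describes these letters and is not a bound site. Sites further from the start or in introns lie outside these windows.

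Ratios below are log2 of knockout over wildtype, after the 2 arrays were set to an equal 2% trimmed mean and signals under a floor of 77.6, the mean of the arrays' 40th percentiles, were raised to it. The words higher and lower past a threshold refer to a size rule of at least 2-fold. None of the 8 genes reached it in either direction. Cdkn1b could not reach it, because all its signals lay under the floor. For comparison, 2.09% of all 12422 tested probe sets on the first type did (0.869% higher, 1.22% lower), and 2.30% of the 7031 with both signals above the floor. At such a background, 0 of 8, or 0 of the 7 genes above the floor in both arrays, is near what the array shows in general. Of the 11 probe sets 9 read above the floor in both arrays, from 7 genes. Their ratios ran from -0.42 to 0.40, with 4 above 0 and 5 below, and the median was -0.24 beside 0.02 for all probe sets above the floor. Cdkn1a and Gadd45b count here with 2 probe sets each, so this median does not give a shift of the genes. The furthest from 0 was 1.34-fold. The middle 95% of all probe sets above the floor lay between -0.79 and 0.75, and every one of the 9 fell inside it. The 25th and 75th percentiles were -0.23 and 0.25, and 2 of the 9 fell between these. The median size of the ratio, regardless of sign, was 0.273 for the 9 and 0.242 for all probe sets above the floor.

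**Figure D1:**
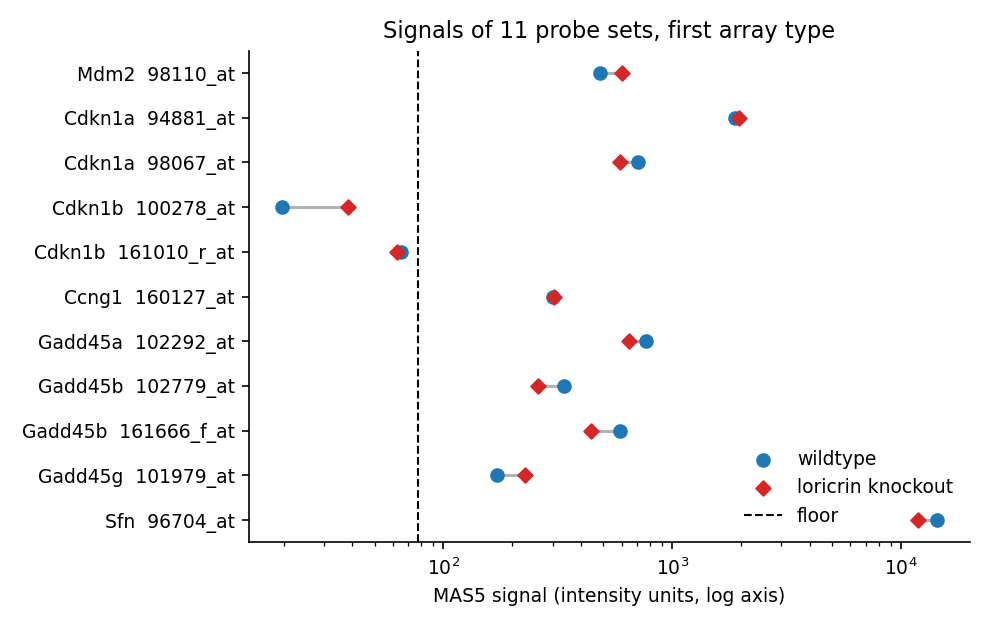
MAS5 signal (log axis, intensity units) of the 11 probe sets in the wildtype array (blue circles) and the loricrin knockout array (red diamonds) of the first type, with the floor of 77.6 as a dashed line. Both Cdkn1b probe sets lie below the floor in both arrays, and for the other 9 the symbols lie no more than 1.34-fold apart.

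Among the regulators of p53, Mdm2 read 604 in knockout and 484 in wildtype, a ratio of 0.32 or 1.25-fold. Of the probe sets above the floor 80.6% had a lower ratio. Trp53 itself could not be given. A pair of probe sets is annotated to Trp53-ps, a pseudogene of Trp53, and was not counted because its symbol is another one. These read 96.5 against 115 and 374 against 334, with ratios of -0.25 and 0.16, so they did not share a direction. Whether they also pick up Trp53 transcripts was not tested.

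Cdkn1a encodes p21, the inhibitor of cyclin-dependent kinases through which p53 holds cells before S phase. Its brighter probe set read 1956 in knockout and 1872 in wildtype, a ratio of 0.06. The other read 588 and 709, a ratio of -0.27. The probe sets of this gene thus lay on opposite sides of 0, by a difference of 0.332. Over 725 genes with exactly 2 probe sets above the floor in both arrays, the median difference was 0.299 and the 95th percentile 0.997. The Cdkn1a probe sets differed by about as much as those of a typical gene, and no direction can be given for p21.

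Cdkn1b encodes p27, a related inhibitor that is mostly controlled at the protein level. Its probe sets read 38.2 against 19.7 and 62.7 against 64.9, all under the floor, and no ratio could be formed. Ccng1 encodes cyclin G1, a p53 target that acts back on the Mdm2 loop. It read 303 in knockout and 301 in wildtype, a ratio of 0.01. This was the smallest difference among the 9 probe sets above the floor.

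The GADD45 genes encode small stress sensors that bind cell cycle kinases, the replication clamp and an upstream kinase of the p38 and JNK pathways. Gadd45a, the p53 target of the family, read 650 in knockout and 769 in wildtype, a ratio of -0.24. Gadd45b, which responds to TGF-beta and NF-kappaB signals, read 260 and 337 on one probe set, a ratio of -0.37. On the other it read 441 and 590, a ratio of -0.42. That probe set carries the suffix for sequence shared within a family. These 2 ratios differed by 0.0466, a smaller difference than in 90.9% of the 725 genes. Gadd45g went the other way and read 227 in knockout and 171 in wildtype, a ratio of 0.40 or 1.32-fold. The 3 genes therefore did not move as a group, and Gadd45b and Gadd45g gave the lowest and the highest of the 9 ratios. Of the probe sets above the floor 12.5% lay below the lowest Gadd45b ratio and 86.5% below that of Gadd45g.

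**Figure D2:**
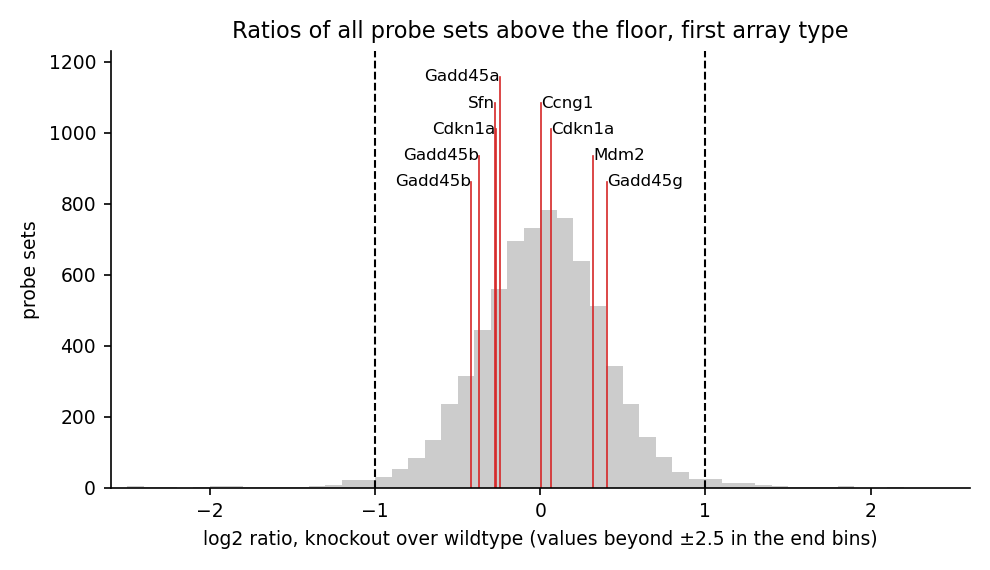
Histogram of log2 ratios (knockout over wildtype, bins of 0.1) of the 7031 probe sets with both signals above the floor on the first array type, with red lines for the 9 probe sets of the p53 and growth arrest genes and dashed lines at 2-fold. All 9 lie between -0.42 and 0.40, inside the dashed lines.

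Sfn encodes 14-3-3 sigma, an epithelial adaptor protein that holds cell cycle kinases in the cytoplasm and is strong in differentiating keratinocytes. It read 11886 in knockout and 14359 in wildtype, a ratio of -0.27 or 1.21-fold. The sign depends on the scaling. With methods that adjust for signal strength the ratio was 0.03 (quantile normalization) and 0.04 (loess). Markers of differentiated keratinocytes stood beside it as follows. Of 8 on the first type, loricrin was past 2-fold (2013 against 41224, 20.5-fold lower), while Krt1, Krt10, Krtdap, Flg, Dsc1 and Ivl had ratios of -0.51, -0.47, -0.58, -0.39, -0.85 and -0.91. Krt77 went the other way, with a ratio of 0.21. Their summed signal was 89881 in knockout and 163234 in wildtype, loricrin included. Their part in the Sfn value was not tested.

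The other sample values that moved with genotype are given once. Of 8 dermal fibroblast markers on the first type 6 were lower and none higher, with a summed signal of 4245 in knockout and 8947 in wildtype. Of 4 red cell markers 3 were lower (5520 against 21746 summed), and of 7 basal keratinocyte markers 3 were higher (4745 against 2279), although Krt5, Krt14 and Krt15 read below the floor there. Of 6 leukocyte markers, 5 with a mean signal above the floor, none passed. Only 1 of 8 skeletal muscle and 1 of 5 endothelial markers had such a signal, so these lists could show little. Xist, transcribed from the inactive X chromosome, read 857 and 24.7, and the Y-linked Eif2s3y 42.7 and 1071, so sex and genotype cannot be told apart. The 3′ to 5′ signal ratio, a measure of RNA integrity, was 1.15 and 1.14 for Gapdh and 2.63 and 2.16 for beta-actin in knockout and wildtype. The part of these values in the ratios reported here was not tested.

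All directions are relative to the typical probe set. The 9 spike-in control probe sets (BioB, BioC, BioDn and CreX) had a mean log2 ratio of -0.69. Whether this came from the amount of skin RNA or from later steps was not tested. Scaling on the spike-in controls moved the median of all probe sets above the floor to 0.69 and turned the ratios of all 9 probe sets of the p53 and growth arrest genes positive, from 0.27 to 1.09. Mdm2 (1.01) and Gadd45g (1.09) then passed 2-fold, as did 1432 probe sets in all on that side, with 51 on the other. This scaling adds the same amount to every ratio above the floor, so the order of the 9 is the same by construction.

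**Figure D3:**
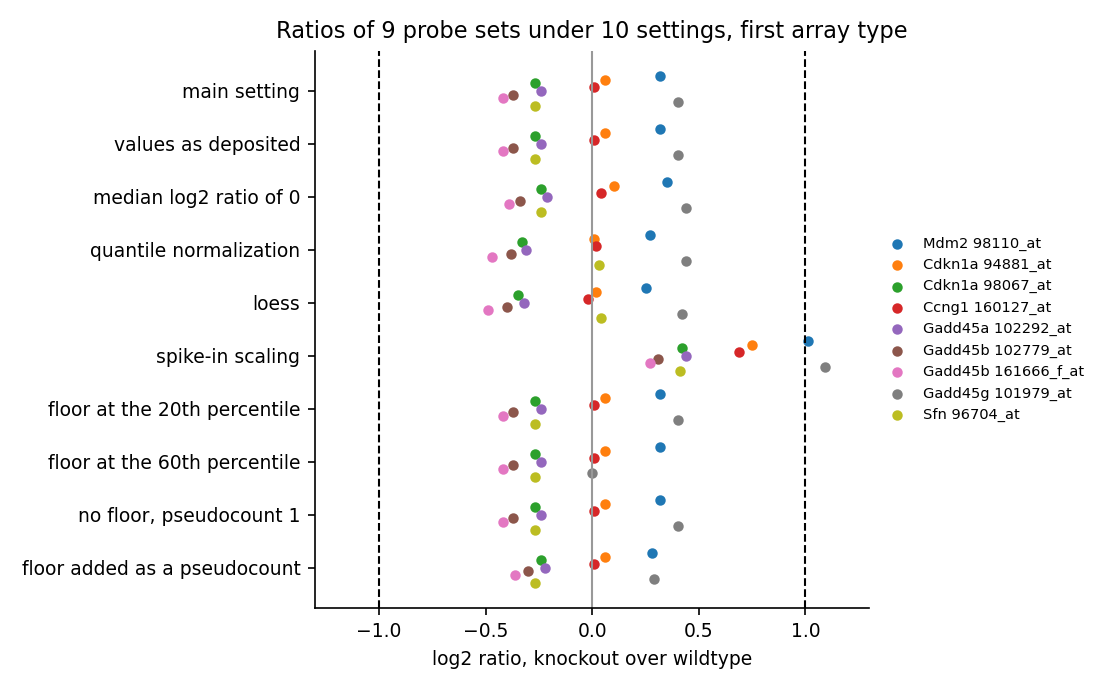
Log2 ratios (knockout over wildtype) of the 9 probe sets above the floor on the first array type, 1 colour per probe set, under the main setting and 9 alternative scalings and floors, with dashed lines at 2-fold. Spike-in scaling moves all 9 to between 0.27 and 1.09, and under the other settings each stays within 2-fold.

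Other genes of the pathway were taken from 10 lists that together hold 113 further genes. The first array type carried 89 of them, of which 3 were higher and 2 lower (3.37% and 2.25%, beside 0.836% and 1.38% of its 8251 named genes). The 3 include Cdc25c, whose other probe set had a ratio of -0.58, and Trp63, whose ratio of 1.06 lay near the threshold. The median ratio of the 76 with a mean signal above the floor was 0.12, beside 0.02 for all such genes. The second type carried 35, of which 25 had a mean signal above the floor. None of the 35 was past 2-fold, beside 1.67% higher and 2.12% lower of its 7542 named genes. Counted by probe set, 3.32% of its 12411 were past it (1.48% higher, 1.84% lower). The lists hold few genes each, and they overlap with one another and with the marker lists.

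Regulators of p53 did not pass on either type, 0 of 11 genes on each. Usp7, a deubiquitinase that acts on both p53 and Mdm2, read 2094 on the first knockout array and 1883 on its wildtype counterpart. The coactivator Crebbp read 764 and 798. Through its second-type probe set Ing1 read 2329 and 2961 and the ubiquitin ligase gene Rchy1 1733 and 1451. The list medians were 0.14 and 0.04.

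Of 20 further p53 targets on the first type 1 was lower and none higher, with a median of 0.07. Igfbp3, which binds insulin-like growth factors outside the cell, read 25.7 in knockout and 218 in wildtype. Its other probe set read 22.4 and 185. Both knockout signals lay under the floor, so the brighter probe set gives at least 2.81-fold lower. Of 8 dermal fibroblast markers 6 were lower in the same array, while Dcn and Col1a2 had ratios of -0.05 and 0.01. The part of these markers in the Igfbp3 value was not tested. The 14 targets with both signals above the floor lay between -0.49 for Perp and 0.60 for Tap1, named here after their values were seen. Rrm2b read 88.8 in knockout with its wildtype signal, 22.1, under the floor, which gives only a bound of at least 1.14-fold higher, and 4 targets read below the floor in both arrays. Perp, an epidermal desmosome gene, read 19883 and 27837. On the second type none of 8 targets passed. Trp53inp1, a cofactor of p53-driven apoptosis, read 3339 in knockout and 4645 in wildtype, a ratio of -0.48, and the BH3-only gene Pmaip1 1286 and 1812, a ratio of -0.49. Aen and Ddb2, named after their values were seen, went the other way, with ratios of 0.83 and 0.34. Rrm2b, also named after its values were seen, read 97.2, under the floor of 133, in knockout and 218 in wildtype on the second type. This gives a bound of at least 1.64-fold lower, opposite to its bound on the first type, so no direction holds for it. The list median on the second type was -0.48 over 5 genes, with Rrm2b among them at its bound of -0.71.

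The p53 relative Trp63, which maintains the basal layer of the epidermis, read 1906 in knockout and 913 in wildtype, a ratio of 1.06 or 2.09-fold higher. It also belongs to the basal keratinocyte markers, where Itga6 and Col17a1 were higher too. Itgb4 among them had a ratio of 0.04, and Krt15 read 26582 and 22304 on the second type, a ratio of 0.25. The part of Trp63 among these markers was not tested. Under loess the Trp63 ratio was 1.00, just under the threshold. The other relative, Trp73, read 309 and 291 on the second type.

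Among 5 other inhibitors of cyclin-dependent kinases on the first type, Cdkn1c was lower and none was higher. Cdkn1c encodes p57, an imprinted inhibitor that restrains growth in the embryo and acts in the same protein family as p21 and p27. It read 221 in knockout and 829 in wildtype, a ratio of -1.91 or 3.76-fold lower. Across the alternative settings its ratio stayed between -1.97 and -1.22. The same 6 of 8 dermal fibroblast markers, without Dcn and Col1a2, were lower in this array, and their part in the Cdkn1c value was not tested. Cdkn2b, Cdkn2c and Cdkn2d, named after their values were seen, had ratios of 0.15, -0.17 and -0.12. Cdkn2a read 24.8, under the floor, in knockout and 78.4, just above it, in wildtype.

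None of 11 G1 cyclins, kinases and pocket proteins passed on the first type, with Cdk4 at 2394 and 2373 and Ccnd3 at 1281 and 1190. For Ccnd2, Rbl2 and E2f1 the wildtype signal lay under the floor, so their ratios of 0.62, 0.75 and 0.77 are lower bounds. The second type held 2 of them, Cdk6 at 1343 and 1024 and Ccnd3 at 152 and 102, neither past 2-fold. Of 9 genes of G2 and mitosis on the first type 1 was higher. This was Cdc25c, the phosphatase that activates the mitotic kinase, at 288 in knockout and 131 in wildtype. Its other probe set read 165 and 247, a ratio of -0.58 against 1.14, so no direction holds for it. Cdc25b read 392 and 380 on the second type.

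Of 10 other growth arrest genes on the first type Ndrg1 was higher and none lower. Ndrg1, a gene induced by hypoxia and differentiation, read 3410 against 1543 in wildtype with its brighter probe set, a ratio of 1.14. The other probe set read 2618 and 1009, a ratio of 1.38, so both lay past 2-fold in the same direction. Over the alternative settings the ratio of Ndrg1 stayed between 1.11 and 1.83. On the second type none of 4 passed. Tob1 read 1506 in knockout and 2591 in wildtype there and 5323 and 5592 on the first type, and Btg1 1764 and 1402.

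The kinase partners of the GADD45 proteins did not pass, 0 of 7 and 0 of 2 genes on the types. On the first type Mapk14, which encodes p38 alpha, read 3288 in knockout and 3064 in wildtype, and Map2k3, an activator of it, 3023 and 2678. Map2k4 read 5828 and 6607 and Mapk9 657 and 618 on the second type. The BCL2 family, to which Bax belongs, had 0 of 11 and 0 of 4 past 2-fold. Bok, an effector related to Bax, read 1366 and 1527 on the first type, and the survival factor Mcl1 1132 and 1053. Bmf read 1240 and 813 and Bcl2 394 and 488 on the second type. None of the 6 other 14-3-3 genes passed on the first type. Ywhaz read 10316 in knockout and 11536 in wildtype, a ratio of -0.16, and Ywhaq 6379 and 5780. On the second type Ywhaq read 783 and 782, and Ywhaz lay under the floor of 133 there.

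**Figure D4:**
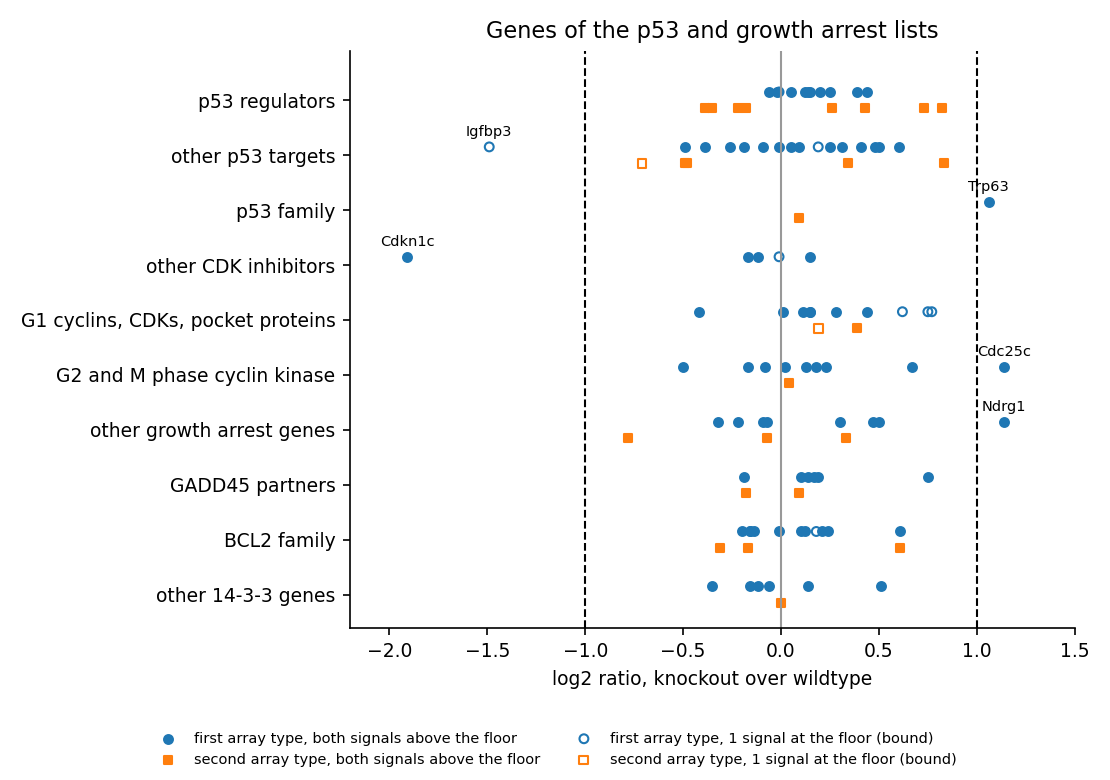
Log2 ratios (knockout over wildtype) of the genes in 10 pathway lists on the first (blue circles) and second (orange squares) array type, with open symbols for ratios with 1 signal at the floor and genes below the floor in both arrays left out. Dashed lines mark 2-fold, and the genes past it, all on the first type, are named.

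Of the list genes, 11 had a mean signal above the floor on both array types, so both comparisons could be joined. limma, with the array type as a block, compared the genotypes over all 4 arrays for 1081 such genes. None of the 11 passed an adjusted p of 0.05, beside 1 of the 1081 (0.0925%). At an unadjusted p under 0.05 there was 1 of the 11, beside 110 of the 1081, so the list genes held about the share of all genes. That gene was Hipk2, a kinase that phosphorylates p53. Its ratios of 0.44 and 0.73 were above 0 on both types and past 2-fold on neither. Its mean was 0.58 (SE 0.24, limma adjusted p = 0.44). Usp7 had ratios of 0.15 and 0.82, and Tob1 -0.07 and -0.78. Of the remaining 8, Btg1, Crebbp, Ing1, Map2k4 and Trp53bp1 had opposite signs on the types. Hipk2 and the genes of these last sentences are named after their values were seen. The prior carried 13.9 degrees of freedom and each gene 1, and nothing says that the arrays held separate animals, so these p-values measure disagreement between array types and no spread between animals.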

How the data were processed

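The authors' deposited values are array intensity signals on a linear scale, 1 per probe set and array, and the submitters' processing notes name MAS5 (version, scaling target and detection calls not given in the sources used here). The 4 arrays had 2% trimmed means between 500.2 and 500.4. From these signals both arrays of a pair were brought to a common trimmed mean, 66 control probe sets were removed, signals were raised to a floor (77.6 and 133, the 40th percentiles), and log2 ratios of knockout over wildtype were taken. A gene in a list took its probe set of highest mean signal. Symbols in lists were updated by gene identifier with RefSeq (10817 of 10833 and 10550 of 10581 probe sets matched). Arrays carry no genome build, and coordinates belong to the RefSeq promoter windows.

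With 1 array per genotype and type a rule of size (2-fold) replaced a test. limma 3.58.1 (R 4.3.3; lmFit, eBayes, Benjamini-Hochberg) was fitted over genes on both types. The steps were tested on simulated data with planted changes of at least 2-fold, which does not cover smaller changes. Alternatives covered scaling, floor, fold, probe sets and the block. The genes and lists were chosen with earlier results of these data known. Named from lists were up to 3 genes furthest past 2-fold in each direction per type, or the 2 of highest mean signal where none passed.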

Additional observations from a re-analysis of the deposited data

How the results depend on the processing

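None of the 8 genes with a probe set passed 2-fold under 11 of 12 alternatives (values as deposited, a median ratio of 0, quantile, loess, 4 treatments of the floor, a threshold of 1.5-fold, the median over probe sets, and plain probe sets alone), and 2 did under spike-in scaling. The 3 higher pathway genes became 2 under loess, the 60th percentile floor, the floor added as a pseudocount, the median over probe sets and plain probe sets. They became 8 with the floor at the 20th percentile or absent, 10 at 1.5-fold and 17 under spike-in scaling. The 2 lower ones stayed between 1 and 3. Cdc25c reversed to -0.58 on plain probe sets, because its brighter probe set carries a suffix and dropped out. Igfbp3 had a ratio of 0.00 with the floor at the 60th percentile, which lies above both its signals. Of the 11 list genes on both types none passed limma's adjusted p under any alternative except spike-in scaling, where 7 did, as did 595 of all 1081. The array type serves as the pairing in the joint fit, since each type holds 1 array per genotype. Without it as a block, limma called 0 of the 1081 genes, and 0 at an unadjusted p under 0.05. The comparison on the second type and the joint test could not be made for the 10 genes, which have no probe set there, and leaving out an array leaves no ratio on that type. Signals under the floor, as for Cdkn1b, allow no comparison.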
